A study of Mus musculus with 20 samples.

Results

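The genes described here are Pax2, Pax8, Lhx1, Emx2 and Wt1, 5 transcription factors of the Wolffian duct, taken by name from a table of 23284 genes. Poly-A RNA was sequenced from 20 grafts, 4 in each of 5 groups, in which mouse epithelium was combined with rat (Sprague Dawley) urogenital sinus mesenchyme (UGM), the embryonic tissue that instructs prostate growth. The epithelium of the mNKX3.1+UTY_sh, mNKX3.1, UTY_sh and SVE groups was seminal vesicle epithelium (SVE), and that of the PE group was prostate epithelium. The mNKX3.1+UTY_sh group is labelled with an NKX3.1 construct and UTY_sh, read here as a hairpin against Uty, the mNKX3.1 group with the construct alone and the UTY_sh group with the hairpin alone. PE and SVE are labelled wild-type for NKX3.1. UTY is a demethylase-family protein encoded on the Y chromosome. The labels do not say what the letter m stands for. In every group the epithelial donors were 2 months old, the grafts were taken 3 months after implantation and doxycycline, which induces the pTRIPZ vector, was given for 3 months. The strain label is a 129/SvImJ and C57Bl/6J hybrid, whereas the growth protocol names C57Bl/6J donors. The labels do not say whether replicates came from separate donors or hosts, so the p-values measure the spread between these libraries, which may be technical.

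The Wolffian duct is a mesodermal tube from which the seminal vesicle, the vas deferens and the epididymis arise, whereas the prostate buds from the endoderm of the urogenital sinus. In mouse, Pax2 and Pax8 act together to specify the duct lineage, and Lhx1 is needed for the duct to extend. Emx2 is needed to maintain the duct epithelium, and Wt1 acts in the intermediate mesoderm, the gonad and the mesothelium. Downstream of Pax2 and Pax8, Gata3 controls Ret, the receptor through which GDNF guides growth of the duct.

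The libraries held about 14930000 to 29810000 reads. Depth was 14930000 to 20820000 in PE, 15470000 to 21860000 in mNKX3.1 and 20260000 to 25000000 in SVE. It was 22520000 to 24950000 in libraries labelled UTY_sh and 24050000 to 29810000 in those labelled mNKX3.1+UTY_sh. PE replicate 3 and mNKX3.1 replicate 3 were the lowest of their groups. Uty averaged 9.22 ± 0.23 in libraries labelled UTY_sh and 9.29 ± 0.21 in SVE (deposited log2 values, SD, n = 4 each), a difference that was not called. It averaged 9.15 in the libraries labelled mNKX3.1+UTY_sh and 10.23 in mNKX3.1, and fell by 1.08 (limma, SE 0.11, adjusted p = 1.37e-07). The part of the hairpin in this fall was not tested. Uty also averaged 10.24 in PE, labelled with neither construct nor hairpin. It was higher there than in SVE by 0.95 (limma, SE 0.11, adjusted p = 7.27e-07). In libraries labelled mNKX3.1+UTY_sh against SVE it differed by -0.14 and was not called. Uty therefore does not bear out the labels UTY_sh and mNKX3.1+UTY_sh at RNA level against SVE, and these groups are called by their labels. The 5 secretory markers of the seminal vesicle summed to 14.8 to 17.8 in PE and 23.1 to 23.9 in SVE (log2), and 5 prostate markers to 19.5 to 20.1 in PE and 9.99 to 17.9 in SVE. Pbsn, a prostate secretory gene, reached 15.1 in mNKX3.1+UTY_sh replicate 4, 14.8 in UTY_sh replicate 3 and 15.7 in SVE replicate 1, and leaving out these 3 changed no member's call. Kidney markers were mostly at or near the floor, with Umod and Slc12a1 at or under 3.11 in all 20 libraries, and 8 epididymal markers were also near it.

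Replicate 3 of PE was nearer to each of the 4 mNKX3.1 libraries than to any other PE library, and replicate 3 of mNKX3.1 was nearer to PE replicates 1, 2 and 4 than to any of its own group. The distance used is the median squared difference of reads over counting noise, where 1 is counting noise alone. PE replicate 3 was at 36.4 to 40.6 from the other PE libraries and at 10.5 from its nearest mNKX3.1 library, replicate 2. Replicate 3 of mNKX3.1 was at 15.2 to 20.8 from its own group and at 4.73 from PE replicate 4. All 4 PE libraries had an mNKX3.1 library as their nearest neighbour within these 2 groups. No pair of libraries agreed within counting noise (lowest distance 3.03). Whether the labels of these 2 libraries were exchanged was not tested, and an exchange would put their values in the other group, so each is given under its label as deposited. Where leaving one of them out moved a named call against SVE by over 1.5 times or changed it, the value without it is given.

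Values below come from the deposited table on a log2 scale. In 5801 genes with a mean below 2.5, 99% of values lay under 3.34, called the floor here. A gene at the floor cannot be told from one that is not expressed, and a difference that reaches it understates the change. Differences were tested with limma over the 13456 genes that reached 5 in at least 4 libraries, with adjusted p below 0.05 as the call. Pax2, Pax8, Emx2 and Wt1 passed this filter and Lhx1 did not. A level in bulk RNA cannot tell fewer cells of a type from less RNA per cell, and mouse and rat reads were not separated here.

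Pax2, the paired-box factor named above, was the member with the largest difference. Its values in replicates 1 to 4 were 9.58, 9.72, 9.56 and 9.33 in libraries labelled mNKX3.1+UTY_sh. They were 3.82, 4.09, 4.71 and 4.11 in mNKX3.1 and 4.98, 4.52, 3.01 and 4.61 in PE. They were 9.50, 9.41, 9.30 and 9.53 in libraries labelled UTY_sh and 9.36, 9.50, 9.59 and 9.50 in SVE. The 12 libraries of the other 3 groups all lay above the 8 PE and mNKX3.1 libraries, and PE replicate 3 alone was within the floor. Pax2 fell by 5.21 in PE relative to SVE (SE 0.28, adjusted p = 3.07e-11), 37.0-fold as an antilog, and by 4.79 without PE replicate 3. It fell by 5.30 in mNKX3.1 relative to SVE (SE 0.28, adjusted p = 2.28e-11). It rose by 5.36 in libraries labelled mNKX3.1+UTY_sh relative to mNKX3.1 (SE 0.28, adjusted p = 1.93e-11) and by 5.27 relative to PE. In PE against SVE, 39 of the 13456 genes had a larger fall than Pax2, 300 than Emx2, 371 than Pax8 and 562 than Wt1. Pax2 passed the filter only through the groups where it is high, so its rank is a description and no support.

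The promoters of Pax2 and Pax8, the pair of duct-specifying factors, are shown because the genes fell together, with 250 bases before a start of each (RefSeq, GRCm38.p6, 5′ to 3′ along the gene's strand). The second start of Pax2 is shown because it alone of 3 holds a match. Capitals mark a match to the NK homeodomain motif searched, TAAGTA, read on the opposite strand.
Pax2, second start, chr19:44755502-44755751, plus strand: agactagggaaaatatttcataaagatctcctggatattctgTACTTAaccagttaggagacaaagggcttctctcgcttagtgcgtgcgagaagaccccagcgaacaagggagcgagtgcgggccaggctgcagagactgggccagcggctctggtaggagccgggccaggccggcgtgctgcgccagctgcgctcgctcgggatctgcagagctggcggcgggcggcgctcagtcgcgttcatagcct
Pax8, chr2:24475600-24475849, minus strand: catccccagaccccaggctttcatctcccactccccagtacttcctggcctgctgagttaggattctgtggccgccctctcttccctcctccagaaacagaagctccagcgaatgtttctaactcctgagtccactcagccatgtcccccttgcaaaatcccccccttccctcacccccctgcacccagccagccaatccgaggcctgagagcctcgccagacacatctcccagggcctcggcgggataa
The Pax2 stretch held 20 CG dinucleotides, those before its other 2 starts 5 and 25, and the Pax8 stretch 6, against a median of 6 over 32851 promoters. The Pax2 match begins 208 bases before the start. TAAGTA occurs in 7.59% of all 300-base promoters, on either strand, and in 1 of the 6 windows found for 4 members. TAAGTG, the other NK motif, was in none of the 6 and in 9.2% of all promoters. AGAACA, a steroid receptor motif, and TATAAA were in none of the 6 and in 19% and 13.6% of all, and TGTTTA, a forkhead core, was in 1 of the 6 and in 13.4% of all. No motif overlapped another in the printed stretches, and a match is a run of letters, not a site.

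**Figure D1:**
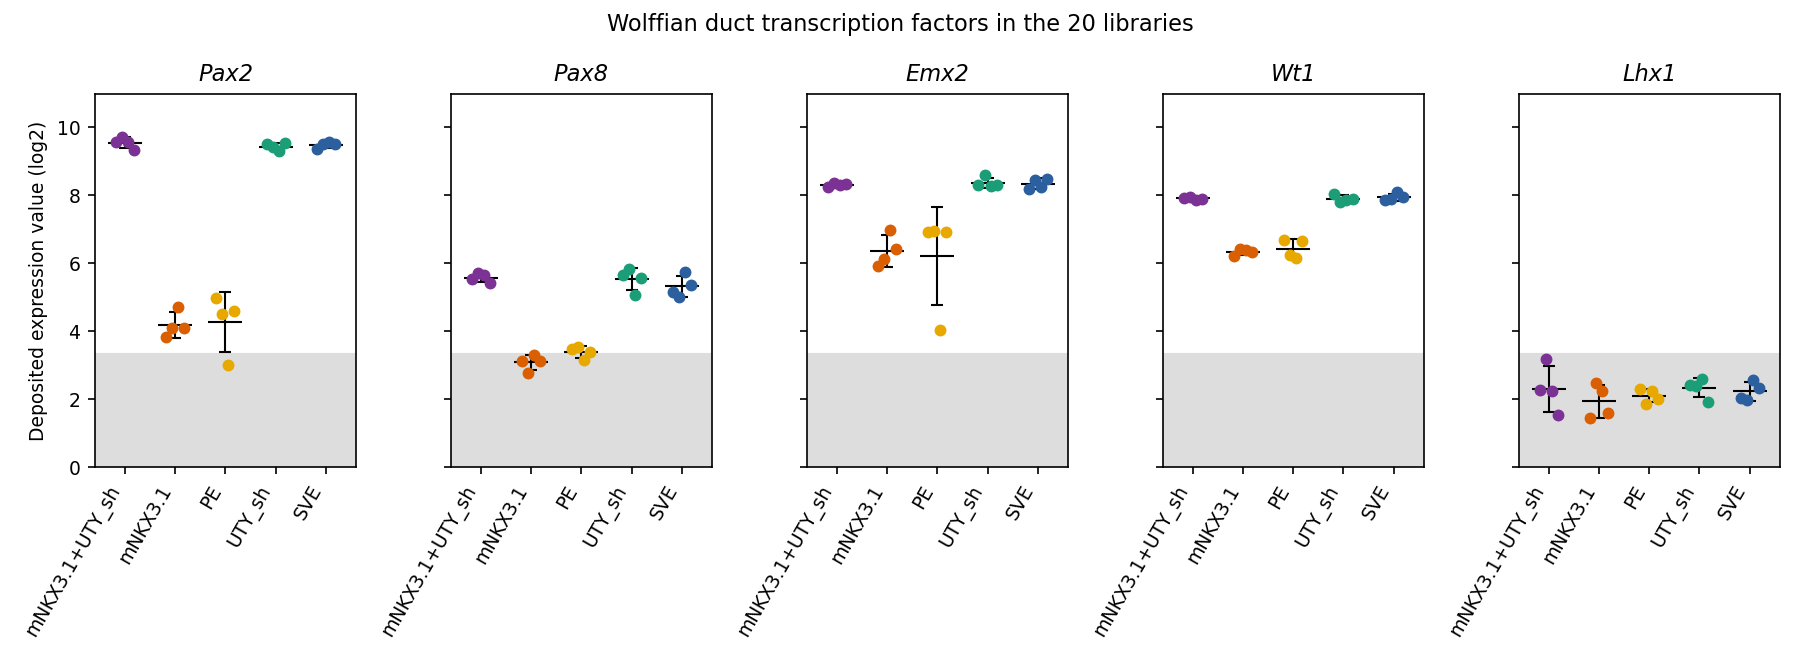
Deposited log2 values (vertical axis) of the 5 members in 20 libraries, by group; points are libraries, bars are the mean and SD of 4, and grey marks values up to the floor of 3.34. Pax2, Pax8, Emx2 and Wt1 are lower in mNKX3.1 and PE than in the other 3 groups, and Lhx1 is at the floor in all 5.

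Pax8, the paralogue of Pax2, fell to the floor in mNKX3.1. Its values were 5.54, 5.72, 5.66 and 5.42 in libraries labelled mNKX3.1+UTY_sh and 3.13, 2.78, 3.31 and 3.12 in mNKX3.1. They were 3.50, 3.54, 3.15 and 3.38 in PE. They were 5.67, 5.82, 5.08 and 5.56 in libraries labelled UTY_sh, and 5.16, 5.02, 5.75 and 5.37 in SVE. All 4 mNKX3.1 libraries and 1 of 4 PE libraries were within the floor, and the highest PE value was below the lowest SVE value. Pax8 fell by 1.93 in PE relative to SVE (SE 0.19, adjusted p = 9.20e-08) and by 2.24 in mNKX3.1 relative to SVE (SE 0.19, adjusted p = 1.42e-08). It rose by 2.498 in libraries labelled mNKX3.1+UTY_sh relative to mNKX3.1 (SE 0.19, adjusted p = 3.18e-09). Pax5, the third member of this paired-box subfamily, was at or near the floor in all groups.

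Lhx1, a LIM-homeodomain factor, was at the floor in all 20 libraries. It measured 2.27, 3.20, 2.23 and 1.53 in libraries labelled mNKX3.1+UTY_sh, and 1.46, 2.47, 2.23 and 1.61 in mNKX3.1. It measured 2.31, 1.87, 2.24 and 2.02 in PE. It measured 2.42, 2.40, 2.61 and 1.94 in libraries labelled UTY_sh, and 2.03, 1.99, 2.56 and 2.35 in SVE. The groups overlap throughout. Exact permutation tests of 4 against 4 libraries, two-sided, gave p = 0.429 for PE against SVE and 0.343 for mNKX3.1 against SVE, and the lowest p such a test can give is 0.0286. Transcripts of Lhx1 were thus not detectable at this depth, and its antisense gene Lhx1os was also near the floor.

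Emx2, a homeodomain factor of the duct epithelium, fell less than Pax2, and its values ranged over 2.91 in PE and 1.07 in mNKX3.1 but over at most 0.32 in each of the other 3 groups. Its values were 8.25, 8.36, 8.31 and 8.34 in libraries labelled mNKX3.1+UTY_sh and 5.92, 6.12, 6.99 and 6.42 in mNKX3.1. They were 6.92, 6.96, 4.05 and 6.92 in PE. They were 8.32, 8.59, 8.29 and 8.31 in libraries labelled UTY_sh, and 8.18, 8.46, 8.25 and 8.50 in SVE. PE replicate 3 lay far below the other 3 PE libraries, and neither PE nor mNKX3.1 overlapped SVE. Emx2 fell by 2.13 in PE relative to SVE (SE 0.44, adjusted p = 3.96e-04), and by 1.41 without PE replicate 3 (SE 0.17, adjusted p = 1.48e-06). It fell by 1.98 in mNKX3.1 relative to SVE (SE 0.44, adjusted p = 7.86e-04). It rose by 1.95 in libraries labelled mNKX3.1+UTY_sh relative to mNKX3.1 (SE 0.44, adjusted p = 8.66e-04), and by 2.10 relative to PE, or 1.38 without PE replicate 3. Emx2os, an antisense gene that overlaps Emx2, averaged 4.96 ± 0.63 in PE and 6.38 ± 0.25 in SVE (SD, n = 4 each), and fell by 1.43 (SE 0.24, adjusted p = 4.65e-05), or by 1.12 without PE replicate 3 (SE 0.17). Use of strand in counting is not given, so reads of Emx2 and Emx2os cannot be told apart. Emx1 was at the floor.

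Wt1, a zinc-finger factor of mesoderm and mesothelium, had the smallest SE of the 4 tested members in the fit over all groups and, with all libraries, the smallest fall. Its values were 7.93, 7.95, 7.88 and 7.89 in libraries labelled mNKX3.1+UTY_sh and 6.22, 6.43, 6.40 and 6.33 in mNKX3.1. They were 6.68, 6.25, 6.16 and 6.66 in PE. They were 8.04, 7.82, 7.87 and 7.91 in libraries labelled UTY_sh, and 7.87, 7.90, 8.09 and 7.95 in SVE. No PE or mNKX3.1 library reached 7. Wt1 fell by 1.51 in PE relative to SVE (SE 0.10, adjusted p = 8.83e-10) and by 1.61 in mNKX3.1 relative to SVE (SE 0.10, adjusted p = 3.64e-10). It rose by 1.57 in libraries labelled mNKX3.1+UTY_sh relative to mNKX3.1 (SE 0.10, adjusted p = 5.07e-10). Mesothelial markers moved with it between the PE and SVE means: Msln averaged 4.97 in PE and 7.89 in SVE, and fell by 2.92 (adjusted p = 8.21e-05). Upk3b and Lrrn4 fell by 3.30 and 2.87. Within groups they did not always follow Wt1. In UTY_sh replicate 2 Msln was 6.06, beside 7.70, 7.84 and 7.87 in replicates 1, 3 and 4, while Wt1 was 7.82. Upk1b rose by 0.69 and has the highest level in the sum of the 4 markers. That sum ranged from 10.2 to 10.9 in PE and from 10.5 to 10.8 in SVE. The part of the mesothelium in the Wt1 result was not tested.

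**Figure D2:**
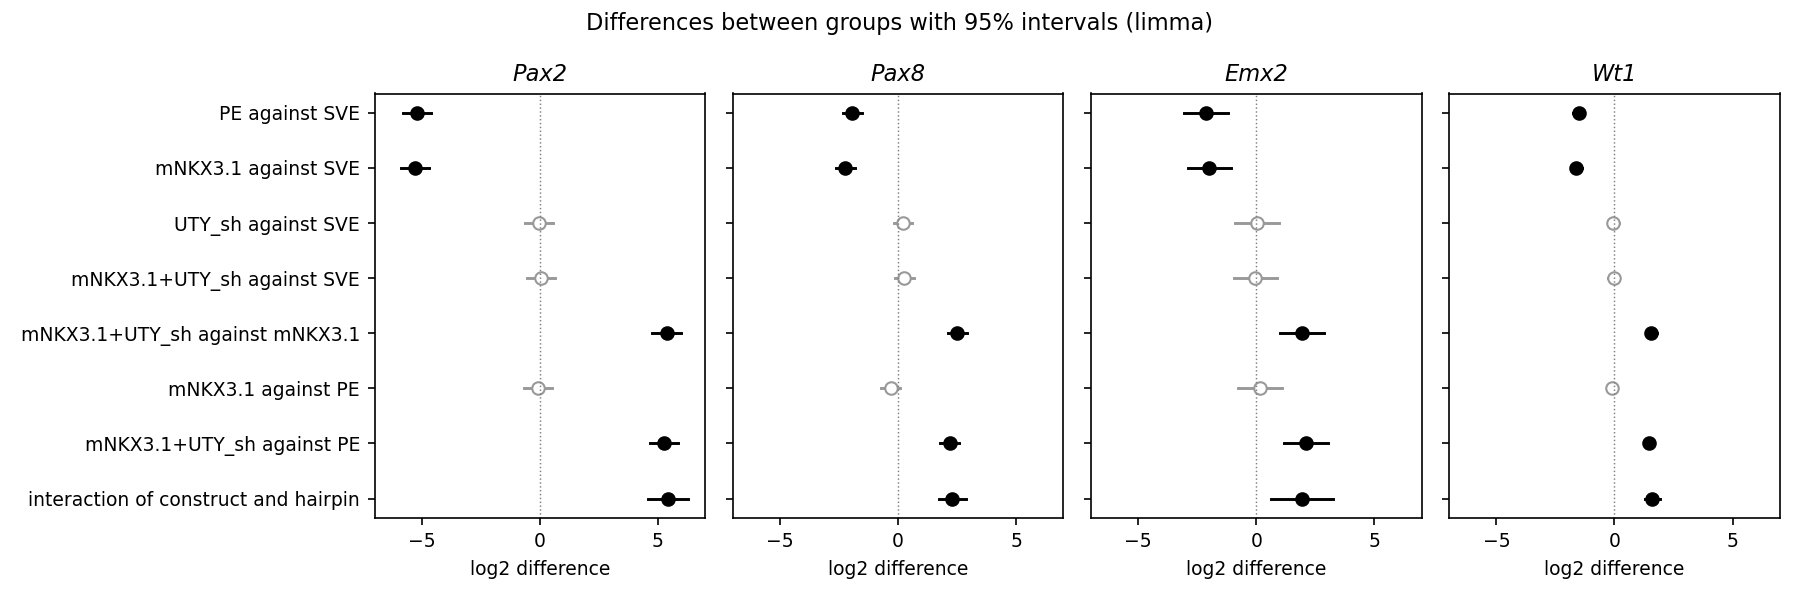
Differences in log2 value (horizontal axis) of the 4 tested members with 95% intervals from limma; black points were called at adjusted p below 0.05, open grey ones were not. The interaction subtracts UTY_sh minus SVE from mNKX3.1+UTY_sh minus mNKX3.1.

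No PE or mNKX3.1 library of Pax2 or Pax8 reached the filter value of 5, so these genes passed the filter only through the groups where they are high and had to differ, and Lhx1 could not pass. The counts that follow are therefore a description of 4 of 5 members and no support. The 4 were called lower in PE than in SVE, a call that 30.4% of the genes tested received, and the groups did not overlap in any of them, as in 23.6% of genes in that direction. They were also called lower in mNKX3.1 than in SVE, where 30.6% were, with no overlap in 4, as in 27.2%. They were higher in libraries labelled mNKX3.1+UTY_sh than in mNKX3.1, where 31.4% of genes were called higher and 30.6% did not overlap, and than in PE, where 30.9% were called higher. These comparisons share libraries, so they are not separate evidence. Exact permutation tests gave p = 0.0286, the lowest possible, for each of these 4 members in each of these comparisons (0.0625 when adjusted over 35 such tests).

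None of the 4 was called in libraries labelled UTY_sh against SVE, or in libraries labelled mNKX3.1+UTY_sh against SVE. The share of genes called was 0% in both, with 316 and 557 genes (2.35% and 4.14%) at an unadjusted p below 0.05. Both shares are under what that threshold gives by chance. In libraries labelled UTY_sh relative to SVE, Pax2 differed by -0.05, Pax8 by 0.21, Emx2 by 0.03 and Wt1 by -0.04. Pax2 differed by 0.06 in libraries labelled mNKX3.1+UTY_sh relative to SVE, with an interval from -0.54 to 0.65. Emx2 differed by -0.03 with an interval from -0.96 to 0.90, and Wt1 by -0.04 with an interval from -0.26 to 0.18. Pax8 differed by 0.26, from -0.14 to 0.66. The intervals leave room for differences of these sizes and do not show that the groups are alike. Their width comes from a spread shared over all groups, PE replicate 3 included. Without that library, the SE in mNKX3.1+UTY_sh against SVE was 0.16 in place of 0.44 for Emx2. For Pax2 it was 0.15 in place of 0.28. The interaction asks whether the difference between libraries labelled with and without UTY_sh depends on the construct label, and Uty was not lower than in SVE in either UTY_sh-labelled group. It was called higher for these 4, as for 24% of genes. It was 5.41 for Pax2 (SE 0.40), 2.29 for Pax8 (SE 0.27), 1.92 for Emx2 (SE 0.63, adjusted p = 0.0167) and 1.61 for Wt1 (SE 0.15).

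In mNKX3.1 against PE no member was called and 0% of genes were. There, 65 genes (0.483%) had an unadjusted p below 0.05, under the share given by chance. When limma weighted libraries by quality, 850 genes were called. Emx2 differed by 0.15 with an interval from -0.78 to 1.08, and Pax2 by -0.09 with an interval from -0.69 to 0.50. This result rests on PE replicate 3 and mNKX3.1 replicate 3. Without both, which were left out after their distances had been seen, Emx2 was lower by 0.78 in mNKX3.1 than in PE (limma, SE 0.12, adjusted p = 7.23e-04), and Pax2 by 0.69 (adjusted p = 0.00371). In that fit 275 genes were called in place of 0, 231 higher and 44 lower. Pax8 and Wt1 remained uncalled, at -0.46 and -0.20. Because the libraries were chosen from values of the same contrast, these figures are a description.

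PE replicate 3 stood apart for Emx2 and Ret, and mNKX3.1 replicate 3 stood apart for Ret. For Emx2 mNKX3.1 replicate 3 was the highest of its group without standing apart. Pax2 had the same order without either standing apart: PE replicate 3 was the lowest of PE (3.01, log2). Its highest mNKX3.1 value was in replicate 3 (4.71), beside 4.98, 4.52 and 4.61 in PE replicates 1, 2 and 4. As a percentage of the SVE mean (antilog), Emx2 was 18.6, 21.3, 39.0 and 26.2 in mNKX3.1 replicates 1 to 4, and 37.1, 38.0, 5.06 and 37.1 in PE. Ret was 29.7, 29.3, 55.3 and 31.2 in mNKX3.1, and 59.4, 49.5, 9.62 and 50.5 in PE. In Emx2 and Ret, mNKX3.1 replicate 3 was near PE replicates 1, 2 and 4. The 5 seminal vesicle markers summed to 0.95, 0.89, 1.69 and 1.04 in mNKX3.1, and 1.79, 1.65, 0.23 and 1.79 in PE. Wt1 showed no such split, at 30.1, 34.8, 34.1 and 32.4 in mNKX3.1 and 41.4, 30.6, 28.9 and 40.8 in PE. The part of these 2 libraries in other results was not tested beyond leaving them out.

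**Figure D3:**
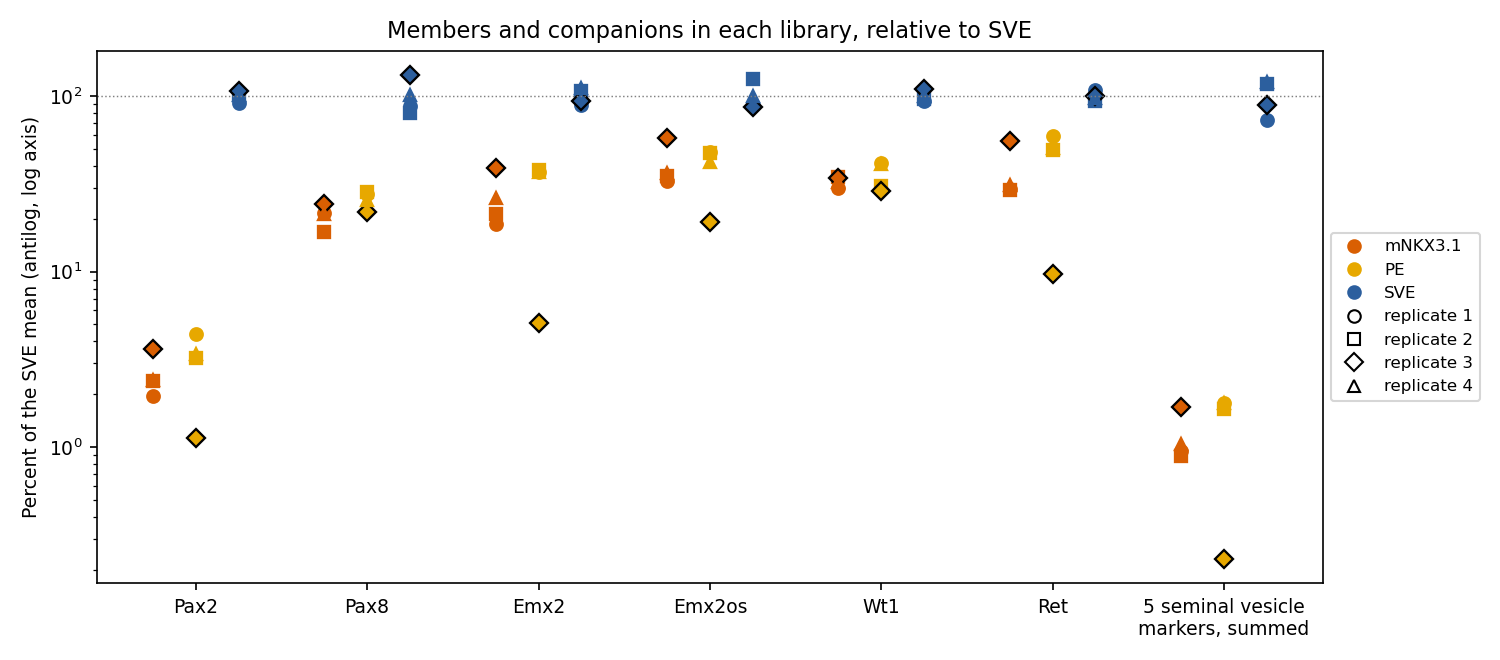
Antilog of the value of each library as a percentage of the SVE mean (vertical log axis) for 4 members, Emx2os, Ret and the 5 summed seminal vesicle markers. Replicate 3 is outlined in black; in PE it is lowest for Emx2 (5.06) and Ret (9.62).

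Markers of tissue compartments also differed between SVE and the PE and mNKX3.1 groups, some in the direction of the members and some against it. The summed stroma markers were at 49.2 to 56.3% of the SVE mean in mNKX3.1 and 48.4 to 63.2% in PE, and 5 of 7 were called lower in PE than in SVE, where 30.4% of all genes were. The smooth muscle genes Myh11 and Acta2 have the highest levels in this sum; Myh11 fell by 0.96 in PE, and Acta2 averaged 13.5 in PE and 14.5 in SVE and was called lower. The fibroblast markers Dcn, at 0.02, and Pdgfra, at -0.16, were not called. The collagen genes Col1a1, at -0.68 (adjusted p = 7.76e-04), and Col3a1, at -0.40 (adjusted p = 0.0309), were called lower in PE. The PE and SVE values of Col3a1 overlapped, and fits of these collagens without PE replicate 3 are not given here. The summed epithelium markers were at 149 to 158% in mNKX3.1 and 147 to 159% in PE, and 4 of 4 were called higher in PE, where 31.8% of all genes were; without PE replicate 3, Krt8 lost its call (0.14, adjusted p = 0.0809). The 3 endothelium markers summed to 9.73 to 10.01 in mNKX3.1, 9.48 to 10.08 in PE and 10.2 to 10.5 in SVE (log2), and Kdr fell by 0.96 in PE (adjusted p = 2.39e-06), Cdh5 by 0.37, while Pecam1 was not called. The 5 leukocyte markers summed to a median of 11.9 in mNKX3.1, 11.2 in PE and 10.4 in SVE, and 1 of 3 tested, Cd68, was called higher in PE; Lyz2, not called at 1.09, was called without PE replicate 3 (1.44, adjusted p = 0.0218). Pax2 was at 1.12 to 4.38% of the SVE mean in PE. The part of tissue make-up in the members' results was not tested. Lrp2, an endocytic receptor of kidney and of duct derivatives, fell by 1.97 in PE relative to SVE (adjusted p = 7.95e-05), and the other 11 kidney markers were not tested because of low values.

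Other genes of the duct network were called in both directions. Their lists were chosen with earlier results of these data known, so the counts are a description and no support. Of 8 further regulators, 1 was called higher and 3 lower in PE than in SVE, with a median difference of -0.36; 31.8% of all genes were called higher and 30.4% lower, with a median of 0.02. Ldb1, a cofactor of LIM-homeodomain proteins, rose by 0.25. The 3 lower were Tle4, a corepressor, at -0.85, Nr2f2, a mesenchymal nuclear receptor, at -0.47, and Paxip1, a Pax-binding protein, at -0.14. Gata3, at -0.24 with adjusted p = 0.0549, missed the call in PE, passed it without mNKX3.1 replicate 3 (adjusted p = 0.0428), was -0.11 without PE replicate 3, and fell by 0.30 in mNKX3.1 (adjusted p = 0.02). Eya1, Osr1 and Sall1 were not called in either.

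Of 14 signalling genes, 9 were tested, and 7 were called lower and 2 higher in PE than in SVE, beside 30.4% and 31.8% of all genes. This list too was chosen with earlier results known, so its counts are a description and no support. The Ret receptor fell by 1.53 (SE 0.38, adjusted p = 0.00201), or by 0.92 without PE replicate 3 (SE 0.16, adjusted p = 1.01e-04), and its co-receptor Gfra1 by 1.32 (SE 0.25, adjusted p = 1.40e-04). Their targets Etv4 and Etv5 fell by 0.69 and 0.42, Etv5 losing its call without PE replicate 3 (-0.36, adjusted p = 0.0713), and the receptor Fgfr2 by 0.57. The mesenchymal ligand Fgf10 averaged 7.34 in PE and 10.2 in SVE and fell by 2.82 (SE 0.26, adjusted p = 4.19e-08), and Bmp4 fell by 0.70. Bmp7, an epithelial ligand, rose by 2.72 (SE 0.29, adjusted p = 2.31e-07), and Spry1, an inhibitor of receptor signalling, by 0.62. Gdnf, the Ret ligand, Wnt9b, Fgf8, Inhba and Grem1 were not tested because of low values. In libraries labelled mNKX3.1+UTY_sh against mNKX3.1, 7 of the 9 rose and Bmp7 fell, where 31.4% of genes were called higher and 32.4% lower.

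**Figure D4:**
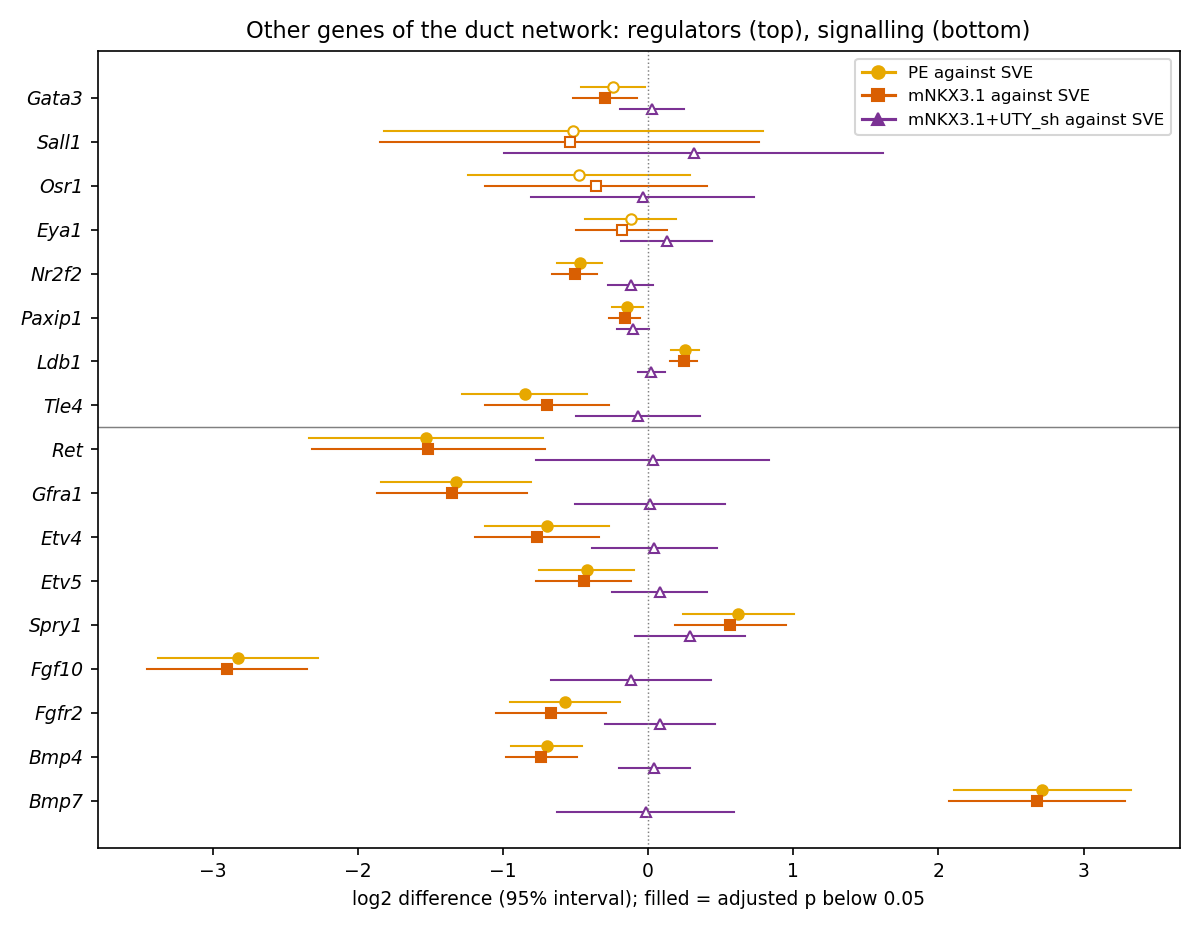
Differences in log2 value (horizontal axis, 95% intervals) of 17 tested duct network genes against SVE in PE, mNKX3.1 and libraries labelled mNKX3.1+UTY_sh; filled points were called. Bmp7 lies to the right and Fgf10, Ret and Gfra1 to the left in PE and mNKX3.1, while no triangle is filled.

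Members tracked each other unequally within groups. Across 20 libraries Pearson's r between Pax2 and Wt1 was 0.9925, and with group means removed it was 0.7142; Pax2 and Emx2 had 0.9197 and 0.9372. With group means removed, r was 0.4492 between Pax2 and Pax8, 0.3754 between Pax8 and Emx2, 0.2821 between Pax8 and Wt1 and 0.5577 between Emx2 and Wt1. Without PE replicate 3 it was 0.701 between Pax2 and Emx2, 0.5389 between Pax2 and Wt1 and 0.07207 between Emx2 and Wt1. The value across libraries is set largely by the groups, genes of a library share its depth, and no test is given. The 5 genes most like Pax2 over the 20 libraries were Svs5, a seminal vesicle secretory protein, with r of 0.9986, then Slc4a8, Kcnj15, Anxa9 and Unc5b. For Pax8 they were Nat8l (0.9906), Vldlr, Il6st, Lmod1 and Hoxb6. For Emx2 they were Gm17689 (0.9892), Ret (0.9861), Olfr1033, Calml3 and Lcn2. For Wt1 they were Kcnj15 (0.9927), Hoxb8, Hoxd9, Pax2 and Shisa4.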

How the data were processed

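Poly-A RNA was sequenced in 20 libraries of 5 groups, with TruSeq libraries, per the labels' protocols. The deposited table holds log2 values per gene; per the submitters' processing notes the tools were Cufflinks 2.0.2, DESeq, TopHat2 2.0.4 and bcl2fastq 1.8.4, with mm9 as build and no roles given, and the step that made the log2 values is not given in the sources used here. At high values each library's antilogs were whole multiples of 1 unit, within 0.1 of a unit for 100% of 800 values between 11 and 13 per library, from which depth was estimated; low values did not give whole reads, so no count test was run. Differences were fitted with limma 3.58.1 (R 4.3.3) on the deposited values, with trend, 1 mean per group, shared spread over the 20 libraries and Benjamini-Hochberg adjustment over the 13456 genes with a value of at least 5 in at least 4 libraries. The limma procedure was tested on simulated data. Lhx1 failed the filter and was tested by exact permutation. Named genes are the 5 members, genes of the lists and the 5 genes of highest correlation per tested member. The members and lists were chosen with earlier results of these data known. Some genes of the lists are not reported here, and the counts and sums leave them out. Antilogs, sums of markers and the promoter search (RefSeq, 250 bases before to 50 after each start, used for sequence and names only, since its build differs from mm9) were computed from the deposited values and that table. Alternatives were other filters, median centring, quantile normalisation, no trend, array weights, only the groups compared, leaving out libraries, and exact permutation tests of single members. Replicates were numbered in accession order.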

Additional observations from a re-analysis of the deposited data

Results flagged for a closer look

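A library far from the other 3 of its group was found in 14 of 155 combinations of a gene or marker sum and a group. The cut used gives about 1 in 20 by chance for any one combination. The combinations share libraries and correlated genes, so an excess over chance was not tested. PE replicate 3 was low for Emx2 (4.05), Emx2os (4.01), Ret (5.72), the summed seminal vesicle markers (14.8) and the summed endothelium markers (9.48). Replicate 3 of mNKX3.1 was high for Ret (8.24) and for the summed prostate markers (20.02), and low for Tle4 (8.28). The others were Emx2 in UTY_sh replicate 2 (8.59), Eya1 in SVE replicate 3 (7.44), Etv4 in PE replicate 1 (6.66), Etv5 in mNKX3.1+UTY_sh replicate 2 (6.57), Bmp4 in mNKX3.1 replicate 1 (7.11) and the summed endothelium markers in UTY_sh replicate 1 (10.3). The interaction of construct and hairpin labels was called higher for Pax2 (5.41), Pax8 (2.29), Emx2 (1.92) and Wt1 (1.61), as for 24% of all genes tested. Uty was not lower than in SVE in either UTY_sh-labelled group. Pax2 and Pax8 passed the filter only through the groups where they are high and had to differ, so their interaction is a description and no support.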

How the results depend on the processing

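The 20 called member differences kept their direction in all 611 values over 31 other settings. Several settings left the group means unchanged and so could not reverse a sign. Nor could leaving out 1 library where the groups compared did not overlap. Pax2 and Pax8 also had to differ to pass the filter, so this count is a description and no support. Pax8 was not tested under the stricter filter at 7. The differences kept their call too if the exact permutation tests, among these settings, are read at their unadjusted p of 0.0286. Adjusted over 35 such tests, that p was 0.0625 and would not be called. Uncalled differences near 0 changed sign. With array weights, Emx2 was -0.0046 in UTY_sh against SVE and -0.53 in mNKX3.1 against PE, and 850 genes were called in mNKX3.1 against PE in place of 0. Without PE replicate 3 and the 3 libraries rich in Pbsn, chosen after the data were seen, Emx2 was -0.57 in mNKX3.1 against PE. Without both PE replicate 3 and mNKX3.1 replicate 3, also chosen then, it was -0.78, Pax2 was -0.69 and called, and 275 genes were called. Leaving out 1 library at a time gave -0.043 to 0.078 for Emx2 and -0.085 to 0.0064 for Wt1 in UTY_sh against SVE. It gave -0.0012 to 0.13 for Pax2, -0.087 to 0.018 for Emx2 and -0.066 to 0.0082 for Wt1 in mNKX3.1+UTY_sh against SVE. In mNKX3.1 against PE it gave -0.52 to 0.14 for Pax2 and -0.57 to 0.40 for Emx2. TAAGTA and TGTTTA each went to 0 of 6 windows, in place of 1, within 150 bases of the start. The cause was not tested. No paired analysis was possible because the replicate numbers follow accession order and name no shared animal. Values near the floor limit Pax8 and Lhx1.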
